A study of Homo sapiens with 54 samples.

Results

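RNA sequencing of HEK293T cells was used to compare cells carrying wild-type RfxCas13d (WT) with the additional crRNA S4 against cells carrying the same effector with a non-targeting crRNA (NTG). The comparison was defined by the sample labels and took 6 of the 54 libraries of the series, 3 labelled WT_S4 and 3 labelled WT_NTG. HEK293T is an established human embryonic kidney line. Both groups received, by transient transfection, 1 plasmid in which the CAG promoter drives the effector and the U6 promoter drives the crRNA, so both carried RfxCas13d and differed in the crRNA. The labels place the harvest at 48 h, whereas a later time stands in the text of the study. Values are also given for untransfected cells (UT), for WT with crRNAs S3, S7 and S13, and for the engineered high-fidelity variant N2V8 with S4 or NTG, with 3 libraries in each group. The labels do not say where S4 binds. The study lists a C9ORF72 crRNA with the number 4, and whether it is S4 was not tested.

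RfxCas13d is an RNA-guided RNA nuclease of bacterial origin. Once a crRNA has paired with its target, the activated enzyme can also cleave RNAs that the crRNA does not match, which is called collateral activity. Replication-dependent histone mRNAs are a special class of messenger. They come from genes without introns and end in a conserved stem-loop in place of a poly(A) tail, and the stem-loop is bound by the protein SLBP.

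The stem-loop is shown for 5 of the histone genes that rose, because their mRNAs would usually be depleted from libraries selected for poly(A). Capitals mark the histone stem-loop motif as searched on the sense strand, GG, 3 bases of any kind, TT, 1 of any kind, T, 1 of any kind, A, 3 of any kind and CC, and 5 bases on each side are in lower case. The sequences were read from GRCh38 in the 150 bases after the stop codon of the GENCODE canonical transcript.
H2AC18 (chr1:149842218-149842243, minus strand): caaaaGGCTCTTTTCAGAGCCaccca
H2BC21 (chr1:149886183-149886208, minus strand): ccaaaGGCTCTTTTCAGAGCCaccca
H4C15 (chr1:149860764-149860789, minus strand): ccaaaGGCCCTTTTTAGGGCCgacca
H1-2 (chr6:26055739-26055764, minus strand): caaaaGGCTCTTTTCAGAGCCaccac
H2BC12 (chr6:27146361-27146386, minus strand): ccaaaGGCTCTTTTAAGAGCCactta
The letters were present in this window in 29 of the 29 replication-dependent histone genes tested and in 0.225% of the 13333 other protein-coding genes with a mapped stop codon. A match is a description of the sequence and not evidence of SLBP binding in these cells.

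The 3 S4 libraries held between 11203184 and 12492325 estimated counts, and the 3 NTG libraries between 12228811 and 13932338. The table lists 38137 genes, and 15378 were kept by the low-count filter. Of 18 kidney-line and neural markers, 15 passed the filter and 0 were called, and PAX8, KRT19 and STMN2 did not pass. VIM was at 995 to 1058 CPM of all counts with NTG and at 862 to 918 CPM with S4, without overlap. Of 20 markers of other lineages, 6 passed and 0 were called, where 2.67% of all genes tested were. PTPRC, CD3E, ALB and INS were at 0 in all 6 libraries. Others of this list were expressed, with COL1A1 at 20.3 to 24.8, MBP at 8.19 to 11.7 and COL3A1 at 5.68 to 9.47 CPM. Library 2 of N2V7_S4, a group outside this comparison, stood apart from its replicates, with deviations from the group mean that had an SD of 0.523 (log2), where other groups had 0.269 or less. Ribosomal RNA genes took 3.15%, 1.71% and 2.77% of counts in the NTG libraries and 2.52%, 3.93% and 3.06% in the S4 libraries, with overlap.

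A gene was called when it differed by more than 25% in level, as a fold change, and its adjusted p was under 0.05 (edgeR quasi-likelihood F test, Benjamini-Hochberg over all genes and the 9 comparisons of an additional crRNA with NTG). With S4, 410 of 15378 genes were called, or 2.67%. Of these, 309 (2.01% of genes tested) were higher and 101 (0.657%) were lower. The rises were the larger changes, with 140 higher genes and 12 lower genes past 2-fold. The libraries of both groups did not overlap for 386 of the called genes, whereas 20.5% of all genes tested had no overlap. The median log2 fold change over all genes was −0.0017. When the adjustment covered this comparison alone, 237 genes were called, 202 higher and 35 lower. Leaving out 1 of the 6 libraries gave 327 to 449 calls, and without WT_NTG replicate 3 the lower genes numbered 60.

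C9orf72 (Entrez 203228, chromosome 9, 27546546 to 27573866, GRCh38), the gene addressed by the study's crRNAs, was examined first. Its level was 29.0, 33.2 and 25.6 CPM (counts relative to the library total, scaled by TMM) in the NTG libraries and 24.9, 26.9 and 24.3 CPM in the S4 libraries. The groups overlapped, since the lowest NTG library lay below the highest S4 library. The log2 fold change was −0.21 ± 0.09 (SE, n = 3 per group, 95% interval −0.39 to −0.02), and the gene was not called (edgeR adjusted p = 0.122). Without WT_NTG replicate 3 the adjusted p was 0.0302 at a log2 fold change of −0.30, still within the 25% limit on fold change. The file sums all transcript variants of the gene, so a change in some variants alone would be diluted. Of 39 tested genes of the C9ORF72 complex and autophagy, 0 were called, where 2.67% of all genes were, and the median was −0.07. The partners of C9ORF72, SMCR8 and WDR41, stood at 0.03 and −0.10.

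Replication-dependent histone genes had the largest share of called members among the 28 gene lists examined. Of 69 genes listed, 65 were in the table and 29 passed the low-count filter. Of the 29, 16 (55.2%) were higher and 0 were lower, against 2.01% higher over all genes, and the median log2 fold change of the 29 was 1.254. The filter ran over all 54 libraries, so a gene near 0 counts with NTG could be tested because other groups held it. Such a gene, as H4C4 or H3C1, could hardly be called lower, so these shares are not free of the filter. The list follows terms for nucleosome and chromatin assembly that the study found enriched with WT and its crRNA-13, so it is not independent evidence of its direction. Summed over all 65 genes, histone mRNA captured in these poly(A) libraries was 153, 133 and 140 CPM with NTG and 357, 393 and 393 CPM with S4. Untransfected cells held 130, 125 and 128 CPM, so the S4 libraries lay above both other groups. In bulk RNA, a change in the share of cells that hold an mRNA and a change in its amount per cell cannot be told apart. Nor can a change in the part of histone mRNA that poly(A) selection captures, which was not measured. The 36 listed genes below the filter together held 15 to 29 counts per NTG library and 45 to 57 per S4 library.

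All 5 histone classes had members that rose. Both tested H1 genes, 3 of 6 H2A genes, 4 of 8 H2B genes, 4 of 6 H3 genes and 3 of 7 H4 genes were called higher. H2AC18, an H2A gene of the chromosome 1 cluster (Entrez 8337), had the largest rise among the genes chosen by size of change, for which the mean log2 CPM had to reach 2. It stood at 7.68, 6.83 and 6.05 CPM with NTG and at 40.5, 45.04 and 43.9 CPM with S4. The groups were far apart, and the UT libraries, at 9.504, 7.58 and 7.87 CPM, lay near NTG. The rise was 6.31-fold (log2 2.66 ± 0.14, edgeR adjusted p = 6.36e-22).

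H2BC21, an H2B gene of the same cluster (Entrez 8349), stood at 8.49, 6.28 and 6.48 CPM with NTG and at 32.5, 34.6 and 36.5 CPM with S4. Every S4 library was over 3 times as high as every NTG library (log2 2.29 ± 0.12, edgeR adjusted p = 1.28e-21). H4C15, which encodes histone H4 (Entrez 554313), was at 25.3, 26.5 and 29.8 CPM with NTG and at 90.05, 115.6 and 124 CPM with S4. The spread among the S4 libraries was wider here, and the groups did not overlap (log2 2.01 ± 0.16, edgeR adjusted p = 5.70e-12). H1-2, a linker histone gene of the chromosome 6 cluster (Entrez 3006), rose from 28.6, 23.4 and 28.3 CPM to 60.5, 66.2 and 67.95 CPM (log2 1.28 ± 0.13, edgeR adjusted p = 2.37e-09). H2AW, an H2A gene outside both main clusters (Entrez 92815, chromosome 1, 228457364 to 228457873), rose from 1.62, 2.86 and 2.21 CPM to 8.38, 9.74 and 8.55 CPM (log2 1.99 ± 0.22, edgeR adjusted p = 3.33e-10). The histone list does not hold H2AW under this symbol, so the gene is outside the counts and sums of that list.

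**Figure D1:**
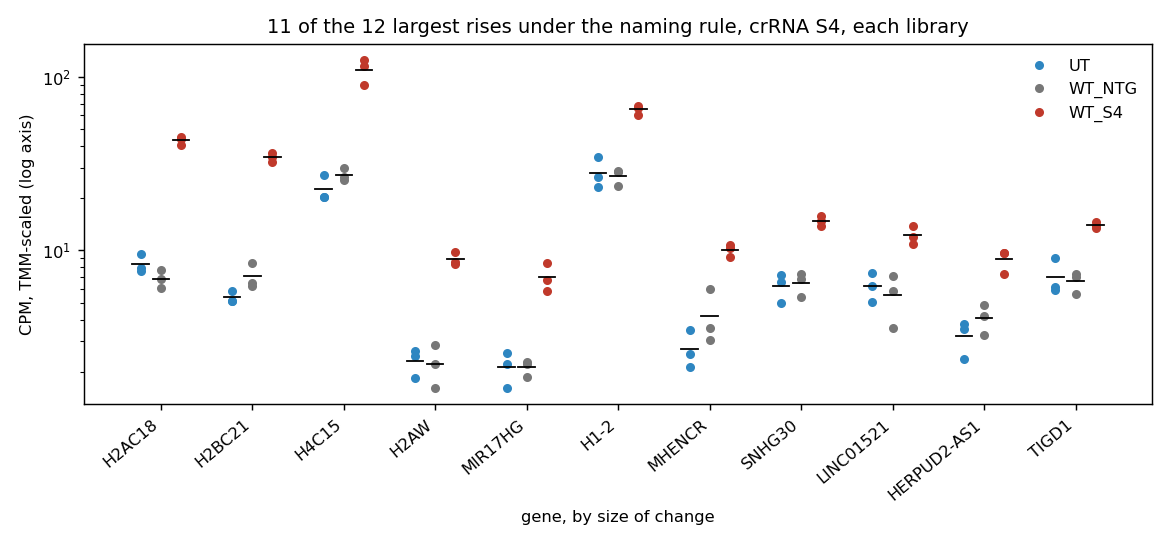
Shown are 11 of the 12 largest rises with S4 among genes that met the rule for level, overlap and left-out libraries (horizontal axis, by size of change) as TMM-scaled CPM on a log axis (vertical), with each point a library and each line the mean of 3, for UT (blue), WT_NTG (grey) and WT_S4 (red). For each gene the S4 libraries lie above all NTG libraries, as the rule of choice required, with H2AC18 at 40.5 to 45.04 CPM against 6.05 to 7.68 CPM.

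Among the called histone genes, 4 with few counts had the largest fitted changes. H4C4 had 0, 0 and 1 count in the NTG libraries and 16, 21 and 24 in the S4 libraries. H3C1 had 1 count in each NTG library and 8, 8 and 13 with S4. H2AC15 had 3, 0 and 2 counts with NTG and 11, 7 and 14 with S4, and H3C15 had 10, 5 and 1 against 31, 32 and 32. For these genes the direction was clear in every library and the size of the change was poorly determined, with an SE of 0.85 for H4C4.

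Near-identical copies limited what could be said of single H4 genes. H4C11 was at 0 counts in the 3 NTG libraries and at 29, 17 and 24 with S4, while H4C12 had 10, 6 and 17 counts with NTG and 0 in each S4 library. Neither was called (edgeR adjusted p = 0.0519 and 0.111). Their counts together were 10, 6 and 17 with NTG and 29, 17 and 24 with S4, and reads shared by near-identical copies can be divided between them in either way. H2AC18, H3C15 and H4C15 also have duplicate genes in the chromosome 1 cluster, and the level of each can include reads of its copy.

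Genes that process histone mRNA 3′ ends, or that replicate DNA, gave 1 call between them. Of 13 processing genes tested, 0 were called, their median was 0.01, and SLBP was at 0.02 ± 0.06 (edgeR adjusted p = 0.878). Of 49 DNA replication genes, 0 were higher and 1 was lower (2.04%, near the 2.67% called over all genes). It was LIG1, the ligase that joins Okazaki fragments (log2 −0.36 ± 0.10, edgeR adjusted p = 0.00424), which lost its call without WT_S4 replicate 1 or WT_NTG replicate 3. None of 37 mitosis and kinetochore genes was called, and their median was −0.02. At the share called over all genes, lists of these sizes would hold few calls, so these counts say little about the lists.

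Among protein-coding genes, the share that rose was highest in genes without introns. This grouping, by exons of the GENCODE canonical transcript, was chosen after values were seen. Of 285 single-exon protein-coding genes tested, 65 (22.8%) were higher and 0 were lower, where 1.19% of all 13525 protein-coding genes were higher. The share fell to 4.95% of 647 genes with 2 exons, 1.93% of 831 with 3, 25 of 1996 genes with 4 or 5, 0.203% of 3942 with 6 to 10 and 0.194% of 5668 with 11 or more. The median log2 fold change went from 0.25 for 1 exon to −0.05 for 11 or more exons. Lower genes had the opposite order at the ends, with 0% of single-exon genes and 0.988% of those with 11 or more exons. Here too, tested genes near 0 counts with NTG could hardly be called lower.

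**Figure D2:**
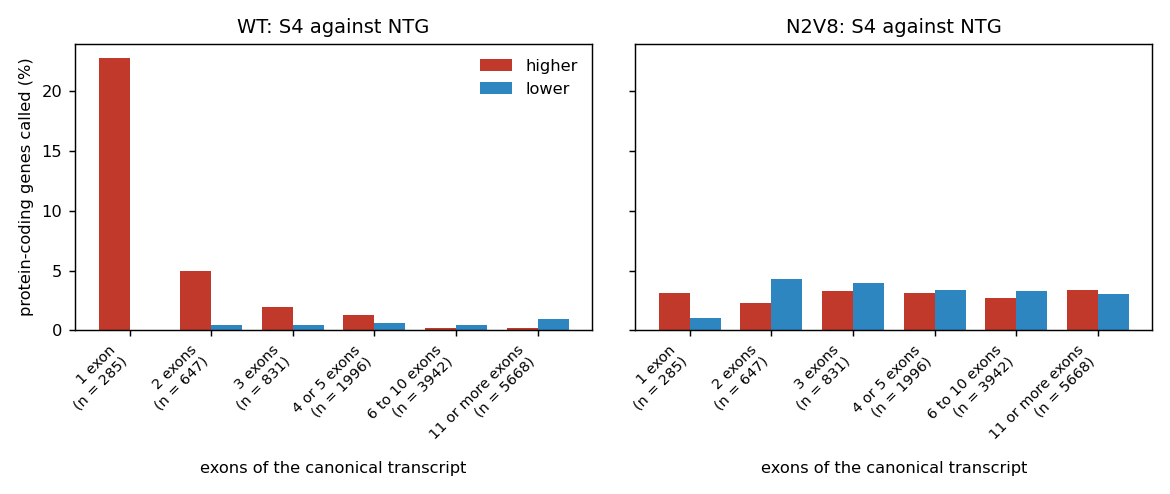
Percentage of protein-coding genes called higher (red) or lower (blue) with S4 against NTG (vertical axis) by the number of exons of the canonical transcript (horizontal axis, with n tested), for WT (left) and N2V8 (right). With WT, 22.8% of single-exon genes were higher and 0 lower, and with N2V8, 3.16% were higher and 1.05% lower.

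Histone genes were not the whole of this pattern. Without the listed histones, 49 of 256 single-exon genes (19.1%) were higher. Where the mean log2 CPM over the S4 and NTG libraries reached 2, 46 of 183 single-exon genes (25.1%) were higher, against 0.638% of 11132 genes with more exons. That mean includes the S4 libraries, so a rise could itself carry a gene past the limit. In the middle range of single-exon transcript lengths, 1705 to 4040 bases, 20.3% of 143 single-exon genes and 0.588% of 5610 others were higher. The median spliced length was 1980 bases for higher genes, 3349 for lower genes and 3472 for those not called, and the median GC content was 53.6%, 56.56% and 48.31%.

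Among single-exon genes other than histones that met the rule for level, overlap and left-out libraries, TIGD1, which derives from a transposable element, had the largest rise. It stood at 7.04, 7.31 and 5.63 CPM with NTG and 13.8, 13.4 and 14.6 CPM with S4 (log2 1.07 ± 0.16, edgeR adjusted p = 5.62e-07). SMIM10L1 went from 12.9, 15.02 and 17.2 CPM to 25.5, 26.7 and 28.2 CPM, and EID2, an inhibitor of differentiation, from 19.2, 17.3 and 21.7 CPM to 30.4, 32.5 and 34.1 CPM. MAGEF1, a MAGE family gene, rose from 49.6, 51.4 and 54.99 CPM to 71.9, 77.6 and 67.5 CPM (log2 0.47 ± 0.07, edgeR adjusted p = 3.45e-07). HEXIM1, an inhibitor of the elongation factor P-TEFb, rose from 24.3, 19.4 and 20.01 CPM to 29.5, 29.5 and 25.5 CPM. None of these genes had overlapping groups, which the choice required.

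Single-exon genes too low to be tested gave a further measure. Summed over 655 such genes without histones, the NTG libraries held 10.8, 9.17 and 12.1 CPM and the S4 libraries 16.6, 17.7 and 16.8 CPM, without overlap, while UT held 9.68, 10.8 and 11.1 CPM. Protein-coding olfactory receptor genes, which are characteristic of olfactory neurons, summed to 2.8 to 3.0 CPM with NTG and 2.3 to 3.8 CPM with S4, with overlap. The part of these low genes in the result for the tested genes was not tested.

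Long non-coding RNAs were the other class with many rises. Of 1329 lncRNA genes tested, 133 (10.0%) were higher and 4 were lower, against 2.01% and 0.657% of all genes, and their median log2 fold change was 0.20. The share was 12.2% of the 254 lncRNAs whose mean log2 CPM over the S4 and NTG libraries reached 2. A rise with S4 could itself carry a gene past that limit, so the limit does not set apart genes weakly expressed with NTG. Of 86 divergent transcripts (symbols ending in DT), 17 were higher, and of 336 antisense transcripts (AS), 31 were higher and 1 was lower. Single-exon lncRNAs were higher in 34 of 92 cases, and lncRNAs with more exons in 48 of 643.

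MIR17HG, the host transcript of the miR-17-92 microRNA cluster (Entrez 407975, chromosome 13, 91347687 to 91354577), stood at 1.86, 2.23 and 2.28 CPM with NTG and 5.82, 6.79 and 8.47 CPM with S4. It was 3.30-fold higher (log2 1.72 ± 0.31, edgeR adjusted p = 4.66e-05). MHENCR, LINC01521 and HERPUD2-AS1 rose by 1.27, 1.15 and 1.11 on the log2 scale. NEAT1, a nuclear lncRNA that builds paraspeckles, was at 111, 109.3 and 133 CPM of all counts, without TMM scaling, with NTG and 132, 134 and 128 CPM with S4, so the groups overlapped. MALAT1 also overlapped, at 1183, 1091 and 1459 CPM, on that scale, against 1332, 1339 and 1433 CPM.

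Small nucleolar RNA (snoRNA) host genes have introns that release snoRNAs, which guide modification of ribosomal RNA. They were higher in 7 of 24 tested cases (29.2%, against 2.01% of all genes and 10.0% of lncRNAs) and lower in 0. Their median was 0.17, where that of all lncRNAs was 0.20. SNHG10 rose from 1.38, 2.15 and 1.14 CPM to 3.79, 4.47 and 3.79 CPM (log2 1.37 ± 0.24, edgeR adjusted p = 1.62e-05). SNHG30 rose from 7.36, 5.40 and 6.84 CPM to 15.8, 13.8 and 14.8 CPM (log2 1.18 ± 0.13, edgeR adjusted p = 1.03e-09). SNHG9 and SNHG4 rose by 1.19 and 0.82, and SNHG9 lost its call without WT_NTG replicate 1 or 3 or WT_S4 replicate 2 or 3. SNHG3, SNHG15 and SNHG19 were the other members called, at 0.68, 0.72 and 0.78. Summed over the 26 listed genes, the NTG libraries held 2027, 2026 and 2173 CPM of all counts and the S4 libraries 2187, 2189 and 2255 CPM. The UT libraries lay above both groups, at 2762, 2643 and 2726 CPM.

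Genes for translation and respiration had medians slightly above 0 and few calls. Of 80 cytosolic ribosomal protein genes, 70 had a positive log2 fold change, none was called, and the range was −0.09 to 0.24. Of 78 mitochondrial ribosomal protein genes, 4 were higher and 0 lower (median 0.09), MRPL36, MRPL50, MRPL52 and MRPL41 at 0.33 to 0.40. Of 77 nuclear-encoded oxidative phosphorylation genes, 4 were higher and 0 lower (median 0.10). These shares were 5.13% and 5.19%, against 2.01% higher over all genes. NDUFA3, a complex I subunit, was at 30.5, 32.7 and 28.4 CPM with NTG and 40.1, 37.8 and 41.0 CPM with S4 (log2 0.38 ± 0.08, edgeR adjusted p = 0.000315), and NDUFB3, ATP5MK and ATP5MF rose by 0.34, 0.34 and 0.33. GPX1, which reduces peroxides with glutathione, rose by 0.40 ± 0.06 (edgeR adjusted p = 6.38e-07). Of these 9 genes, NDUFA3 and GPX1 kept their call each time 1 of the 6 libraries was left out, and the other 7 did not. MRPL36 lost it without WT_NTG replicate 2 alone, and the others without 2 or 3 different libraries in turn.

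Of 85 tRNA processing genes, 5 were higher and 1 was lower, 7.06% in all against 2.67% of all genes. RPP25, a subunit of RNase P and RNase MRP, rose by 0.48 ± 0.10 (edgeR adjusted p = 0.00023), and its gene has 1 exon, as have KTI12 and TRMT12, which rose by 0.47 and 0.40. ADAT3, a subunit of the tRNA adenosine deaminase, rose by 0.76 ± 0.24. Of 60 ribosome biogenesis genes, 2 single-exon genes (3.33%, near the 2.67% called over all genes) rose, RRS1 by 0.45 and UTP3 by 0.32, and the groups overlapped for RRS1. The fifth higher tRNA gene was TRMT10C, a subunit of mitochondrial RNase P, at 0.37 ± 0.07 (edgeR adjusted p = 3.14e-05), and the lower one was TRMT44, a tRNA methyltransferase, at −0.38 ± 0.13 (edgeR adjusted p = 0.0309), both named after their values were seen. The tRNA list also follows a term, tRNA processing, that the study found enriched with WT and crRNA-13, and is not independent evidence. Of the tRNA and ribosome biogenesis genes named here by size of change, RPP25 kept its call each time 1 library was left out, and ADAT3 lost it without WT_S4 replicate 1 or WT_NTG replicate 3, KTI12 without WT_S4 replicate 3, TRMT12 without WT_NTG replicate 3, and RRS1 and UTP3 without 3 and 4 different libraries in turn. Of 59 splicing factors 1 was called, TIA1, an RNA-binding protein of stress granules. It was at 27.6, 27.2 and 27.4 CPM with NTG and at 47.7, 39.3 and 48.3 CPM with S4, without overlap (log2 0.72 ± 0.12, edgeR adjusted p = 2.84e-05).

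**Figure D3:**
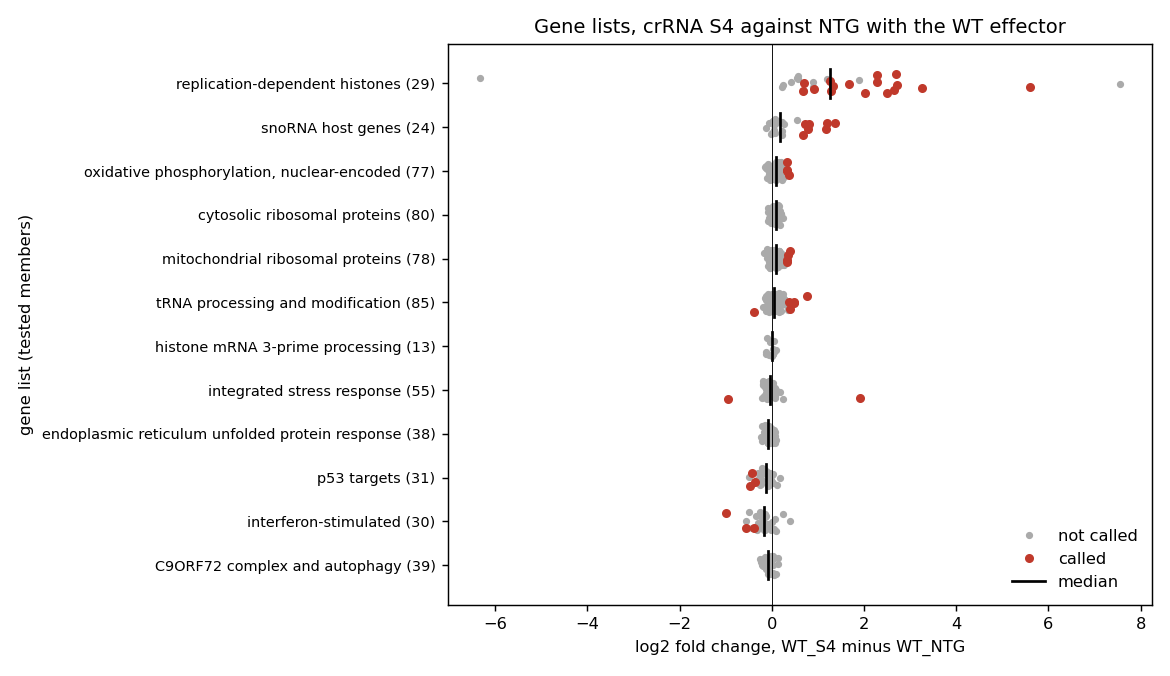
Log2 fold change, S4 minus NTG with the WT effector (horizontal axis), of the tested members of 12 gene lists (vertical axis, number in brackets), with called genes in red, others in grey and the median as a line. The histone list lies furthest to the right, with a median of 1.254, and the outlying grey points at −6.32 and 7.56 are H4C12 and H4C11.

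The falls were fewer and smaller. Among lower genes that met the rule for level, overlap and left-out libraries, INPP5D, a phosphatase of inositol lipids known from blood cells (Entrez 3635, chromosome 2, 233060342 to 233207903), had the largest fall. It was at 6.31, 10.97 and 10.8 CPM with NTG and at 3.53, 4.201 and 4.52 CPM with S4, a 2.29-fold fall (log2 −1.20 ± 0.17, edgeR adjusted p = 3.08e-07). The UT libraries, at 3.56, 4.83 and 4.04 CPM, covered the range of the S4 libraries apart from its lowest value. EPHX2, an epoxide hydrolase, went from 9.71, 11.1 and 11.7 CPM to 5.38, 6.88 and 8.39 CPM (log2 −0.66 ± 0.17, edgeR adjusted p = 0.00316), with UT at 7.22, 8.27 and 8.88 CPM.

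The other 10 of the 12 largest falls under that rule were between −0.57 and −0.38 on the log2 scale, and called genes outside it, such as CCL5 at −1.67, fell further. The 10 were ZNF606, a zinc-finger gene, C1QTNF6, RASSF1, a tumour suppressor that binds microtubules, TBCK, POLH, DDB2, ARNT2, CD83, IFT122, a subunit of the intraflagellar transport machinery, and COG7, a subunit of a Golgi tethering complex. RASSF1 stood at 15.9, 16.2 and 17.7 CPM with NTG and at 11.5, 13.1 and 10.1 CPM with S4 (log2 −0.52 ± 0.11, edgeR adjusted p = 0.000451). Only 13 lower genes met the rule for level, overlap and left-out libraries, against 70 higher genes. Lower protein-coding genes had a median of 14 exons, and higher ones 2.

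**Figure D4:**
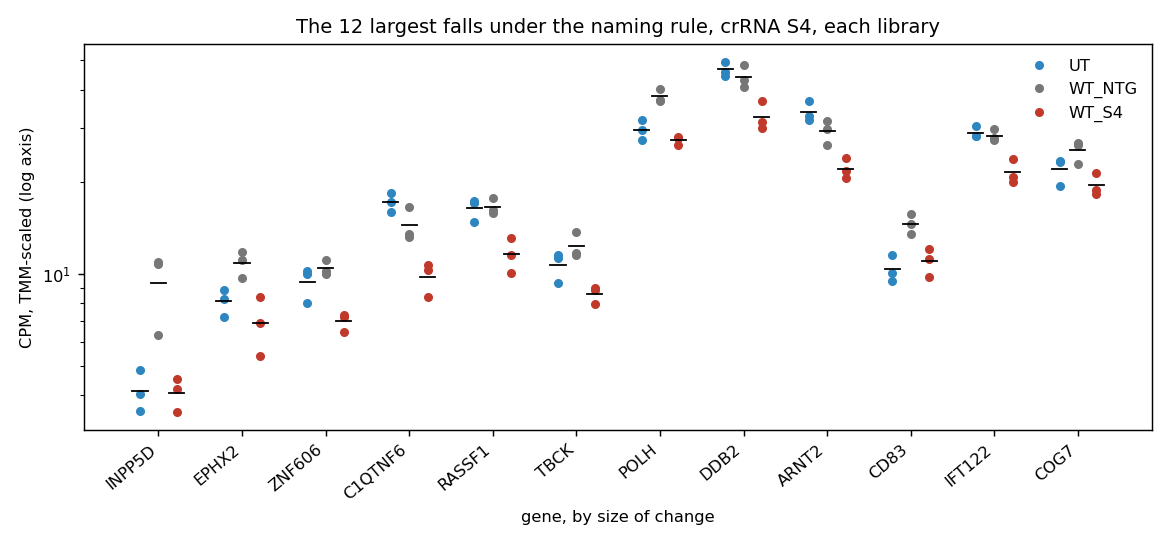
The 12 largest falls with S4 among genes that met the rule for level, overlap and left-out libraries (horizontal axis, by size of change) as TMM-scaled CPM on a log axis (vertical), with each point a library and each line the mean of 3, for UT (blue), WT_NTG (grey) and WT_S4 (red). Of these genes INPP5D fell furthest, from 6.31 to 10.97 CPM to 3.53 to 4.52 CPM.

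Of 31 p53 targets, 3 (9.68%, against 0.657% lower over all genes) were lower and 0 higher (median −0.13). POLH, a DNA polymerase that bypasses ultraviolet lesions, went from 37.2, 36.9 and 40.2 CPM to 26.4, 27.8 and 28.003 CPM (log2 −0.48 ± 0.09, edgeR adjusted p = 0.000113), with UT at 27.5, 31.9 and 29.5 CPM. DDB2, which recognises damaged DNA, fell by 0.43 ± 0.10 on the log2 scale (edgeR adjusted p = 0.00148). CDKN1A, the cell-cycle inhibitor p21, fell by 0.35 ± 0.07 (edgeR adjusted p = 7.63e-05) and lost its call without WT_S4 replicate 1 or WT_NTG replicate 3. MDM2, another target, stood at 0.0036 ± 0.05.

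Of 30 interferon-stimulated genes, 3 (10%, against 0.657% lower over all genes) were lower and 0 higher (median −0.18). Summed over the 42 genes listed and present, the NTG libraries held 841, 924 and 867 CPM of all counts. The S4 libraries held 803, 784 and 747 CPM and overlapped the UT libraries, at 691, 790 and 746 CPM. IFIT2 was at 2.26, 1.75 and 1.85 CPM with NTG and 1.15, 1.16 and 0.65 CPM with S4, IRF9, a subunit of the factor ISGF3, fell by 0.56 ± 0.20 on the log2 scale, and OAS3, which makes the activator of RNase L, fell by 0.39 ± 0.14. Their adjusted p-values in edgeR were 0.040, 0.0376 and 0.04998, and OAS3 lost its call whichever of the 6 libraries was left out, IRF9 for 4 and IFIT2 for 3 of them. OAS3 was also the only gene called among 17 eIF2 kinase and ribotoxic stress genes. Of 21 NF-kB targets 3 were called (14.3%, against 2.67% of all genes). CD83 and the chemokine gene CCL5 were lower and IER3 was higher, and of these CD83 kept its call each time 1 library was left out, CCL5 lost it without WT_S4 replicate 1 or WT_NTG replicate 3, and IER3 without WT_S4 replicate 3 or WT_NTG replicate 2.

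Stress pathways gave few calls. Of 55 genes of the integrated stress response, 1 was higher and 1 lower, FGF21 and GDF15, and the median was −0.04. This share of 3.64% was near the 2.67% called over all genes. FGF21, a secreted hormone, had 2, 3 and 3 counts with NTG and 7, 10 and 11 with S4, and GDF15, a stress-induced cytokine, had 19, 44 and 52 counts with NTG and 16, 12 and 25 with S4, with overlap. FGF21 lost its call without WT_NTG replicate 1, and GDF15 without WT_NTG replicate 2 or 3 or WT_S4 replicate 2. The regulator ATF4 stood at 0.03 ± 0.05 and its target ASNS at −0.04 ± 0.12. None of 38 unfolded protein response genes, 28 heat shock genes, 29 apoptosis genes, 30 hnRNP genes, 50 RNA decay genes or 24 cholesterol synthesis genes was called. At 2.67% over all genes, lists of these sizes would hold few calls. SMAD7, an inhibitor of activin and TGF-beta signalling, was the only 1 of 20 BMP, activin and ID genes called, at −0.35 ± 0.12 (edgeR adjusted p = 0.0447), a call lost on leaving out any of 5 libraries and kept without WT_NTG replicate 2.

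The S4 libraries were next compared directly with WT libraries of other crRNAs, with no NTG library in the contrast and the adjustment over all genes and these 3 comparisons. Against S3, 88 genes (0.572%) were called, 49 higher and 39 lower with S4, and 7 were called when the adjustment covered that comparison alone. H2AC18 was lower with S4, at 40.5, 45.04 and 43.9 CPM against 88.4, 77.1 and 68.9 CPM with S3 (log2 −0.85 ± 0.11, edgeR adjusted p = 3.92e-08). H2BC21 and H2AX, a histone variant gene with both a stem-loop and a polyadenylated form, were also lower with S4, by −0.78 and −0.47. SNHG3 was higher with S4, at 68.6, 63.1 and 69.4 CPM against 50.8, 45.6 and 46.7 CPM (log2 0.49 ± 0.07, edgeR adjusted p = 1.42e-06), as were IGIP, SLC16A7 and EXPH5, at 0.76, 0.55 and 0.48. TMEM177 was lower with S4, at −0.43. Of 285 single-exon protein-coding genes, 1 was higher and 6 were lower with S4. Of 1329 lncRNAs, 11 were higher and 7 were lower, where 0.319% and 0.254% of all genes were. Summed over all 65 listed histone genes, the S3 libraries held 456, 444 and 440 CPM, above the 357, 393 and 393 CPM with S4.

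Against S13, 811 genes (5.27%) were called, 296 higher and 515 lower with S4. INHBA, a subunit of activin, was higher with S4, at 11.4, 14.1 and 15.6 CPM against 5.97, 6.99 and 5.89 CPM (log2 1.13 ± 0.16, edgeR adjusted p = 6.59e-07), as were the small heat shock gene CRYAB at 1.55, AKNA at 1.22 and CGA at 1.18. INPP5D was lower with S4, at 3.53, 4.201 and 4.52 CPM against 13.5, 16.8 and 13.6 CPM (log2 −1.83 ± 0.16, edgeR adjusted p = 6.82e-13). H3C6 was lower too, at 2.73, 2.86 and 2.82 CPM against 11.2, 9.75 and 7.91 CPM (log2 −1.77 ± 0.22), and ZNF767P and OVGP1 stood at −2.17 and −1.92. Among single-exon protein-coding genes, 15 of 285 were higher and 10 were lower with S4, where 1.92% and 3.35% of all genes were. Of 1329 lncRNAs, 26 were higher and 63 were lower with S4, against the same shares of all genes.

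Against S7, 2315 genes (15.1%) were called, 1290 higher and 1025 lower with S4. DHRS2, a dehydrogenase gene, was at 1.41, 1.07 and 1.37 CPM with S4 and at 34.3, 34.0 and 28.8 CPM with S7 (log2 −4.64 ± 0.25, edgeR adjusted p = 9.08e-22). SGK1, a kinase of the salt and stress response, was at 6.88, 4.11 and 5.003 CPM against 43.2, 49.3 and 48.0 CPM (log2 −3.13 ± 0.15, edgeR adjusted p = 1.43e-24). H2BC5 and the transporter gene SLC4A8 were also lower with S4, at −2.07 and −1.92. INHBE, FUT1, C11orf71 and ASNSP1 were higher with S4, at 2.22, 2.01, 1.99 and 1.81. Of 285 single-exon protein-coding genes, 96 were higher and 7 were lower with S4, and of 1329 lncRNAs, 193 were higher and 28 were lower, where 8.39% and 6.67% of all genes were.

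**Figure D5:**
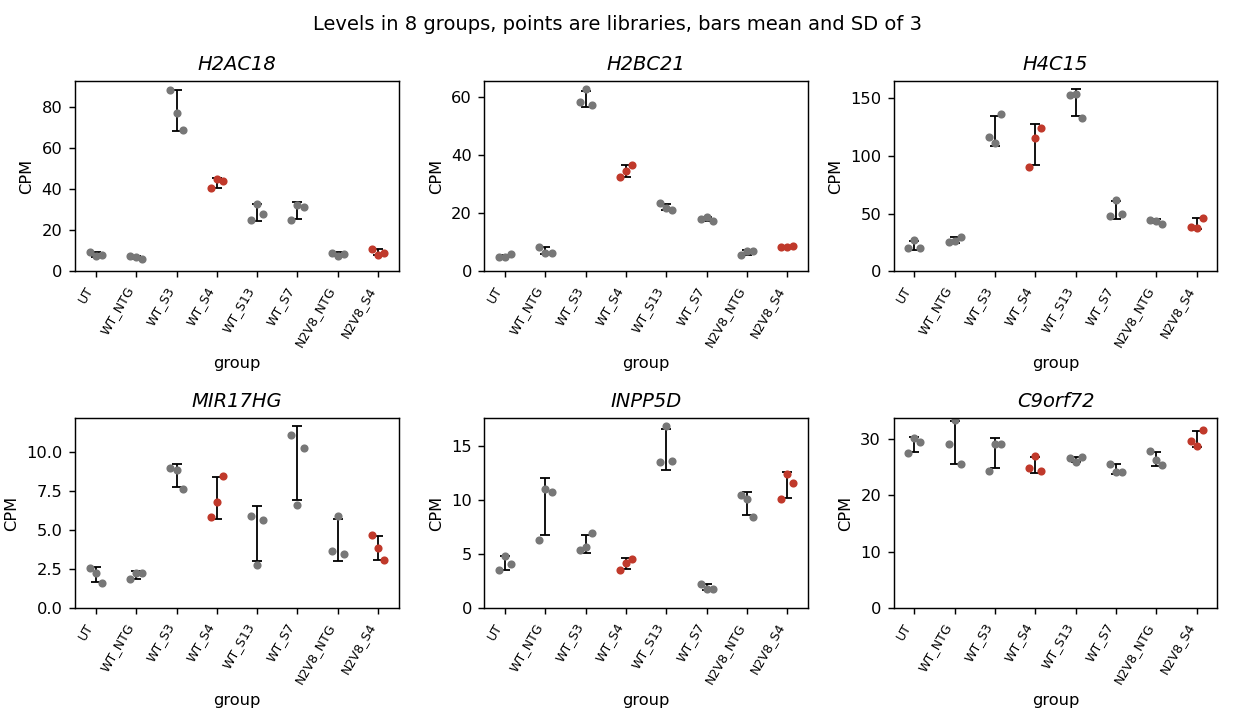
Levels of 6 genes in CPM (vertical axes, from 0) in 8 groups (horizontal axes), with points as libraries, bars as mean and SD of 3, and S4 groups in red. H2AC18 is at 40.5 to 45.04 CPM in WT_S4 and at 7.94 to 10.96 CPM in N2V8_S4, and INPP5D at 3.53 to 4.52 CPM and 10.1 to 12.4 CPM.

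The S4 effect was then compared between effectors, as the WT effect minus the N2V8 effect, each against its own NTG libraries. This difference was called for 1331 genes (8.66%), 731 in the positive and 600 in the negative direction. For H2AC18 the N2V8 libraries stood at 9.18, 7.59 and 8.55 CPM with NTG and at 10.96, 7.94 and 9.11 CPM with S4, so the groups overlapped, and the effects differed by 2.51 ± 0.22 (edgeR adjusted p = 2.75e-12). H4C15 and H2BC21 differed by 2.09 and 1.89. Summed over all 65 listed histone genes, the N2V8 libraries held 155, 164 and 158 CPM with NTG and 166, 177 and 178 CPM with S4. Among single-exon protein-coding genes the difference was positive in 44 of 285 (15.4%, against 4.75% of all genes) and negative in 5, against 3.9% of all genes. Against its own NTG, N2V8 with S4 had 9 single-exon genes higher and 3 lower, where 2.95% of all genes were higher and 3.21% lower, 6.15% in all. C9orf72 in N2V8 cells was at 27.8, 26.2 and 25.2 CPM with NTG and at 29.5, 28.7 and 31.5 CPM with S4, and its S4 effects differed between effectors by −0.38 ± 0.13 (edgeR adjusted p = 0.0454), a call lost with limma-trend (adjusted p = 0.053) and with DESeq2 (0.0513), without the factor of unwanted variation (0.121) and on leaving out 8 of the 12 libraries in turn.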

How the data were processed

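The authors deposited 1 table of estimated counts per gene, from stranded poly(A) libraries. Reads were assigned to NCBI transcripts by Salmon (version 1.5.2) with a GRCh38 decoy, and tximport summed them per gene with its lengthScaledTPM option. A TRUE or FALSE mark of genes they kept (unit: other), also deposited, served only in an alternative. Counts were rounded and analysed in R (version 4.3.3) with edgeR (version 4.0.16). All 54 libraries in 18 groups were fitted together after filterByExpr and TMM scaling, with a mean for each group and 1 RUVr factor of unwanted variation ( 21.8% of residual variance, 95.6% of its squared weight in N2V7_S4), leaving 35 residual degrees of freedom. Group and replicate came from the labels. The quasi-likelihood F test was adjusted by Benjamini-Hochberg over all genes of 9 comparisons with NTG, of 3 direct comparisons, or of the difference between effectors. SE and 95% intervals come from this fit. Its calls and fold changes were tested on simulated data, and its SE and intervals were not. Alternatives used limma (version 3.58.1), DESeq2 (version 1.42.0) and the settings in the closing section.

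The groups compared, the genes and the lists were chosen with earlier results of these data known. Genes were named if called, with a mean log2 CPM that reached 2, no overlap between groups and the call kept whenever 1 library was left out. The 12 largest of each direction were named against NTG and 4 for other comparisons, where overlap was not applied to the difference between effectors, with up to 4 called members per list. Genes with only a locus symbol (57 called) and read-through loci (3 called) were counted and not named, and 1 of the 12 largest rises is not reported here. Exon numbers, lengths and GC content come from GENCODE (release 44) canonical transcripts, matched for 97.5% of higher, 98.9% of lower and 98.9% of other protein-coding genes, and gene coordinates from RefSeq (GRCh38.p14). Libraries of 1 group differed by more than sampling noise. The series' description calls them independent biological replicates.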

Additional observations from a re-analysis of the deposited data

Results flagged for a closer look

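The S4 effect differed between the WT and N2V8 effectors, by a test of the difference itself (edgeR quasi-likelihood F test of the interaction contrast, 12 libraries in 4 groups), for each gene below. The histone genes H2AC18, H4C15 and H2BC21 had differences of 2.51, 2.09 and 1.89 on the log2 scale, and the microRNA host gene MIR17HG had 1.88. With N2V8 these 4 genes had S4 effects of 0.145, −0.07, 0.39 and −0.16, none of them called.

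INPP5D had a difference of −1.42, with an S4 effect of 0.23 under N2V8 that was not called. AKNA, the cystine transporter gene SLC7A11 and FUT1 had differences of −1.68, −1.31 and −1.30. For these 3 genes the N2V8 effector carried the change, with rises of 1.59, 1.27 and 1.37 with S4 that were called, and their WT_S4 and WT_NTG libraries overlapped. In N2V8_NTG cells AKNA stood at 3.23, 4.73 and 3.69 CPM, against 23.9, 24.2 and 27.5 CPM in WT_NTG cells, so the effects started from different levels. C9orf72 had a difference of −0.38, close to the threshold. No explanation of these differences was tested.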

How the results depend on the processing

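With the adjustment within each comparison, the calls against NTG went from 410 to 237 (202 higher, 35 lower) and against S3 from 88 to 7. At an adjusted p under 0.01 they were 227 (199 higher, 28 lower) against NTG, 531 against S13, 25 against S3 and 757 for the difference between effectors. Without the factor of unwanted variation, 51 genes were lower against NTG, 53 were called against S3 and 740 for the difference between effectors. With only the compared libraries, 56 genes were lower against NTG and 13 were called against S3. With no low-count filter 182 were called against S3. Leaving out 1 library gave 327 to 449 calls against NTG, with 267 to 332 higher and 60 to 117 lower. The count of 60 lower genes was without WT_NTG replicate 3.

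With the replicate number as a block, 409 genes were called against NTG, 398 of them among the 410. Deviations of same-numbered S4 and NTG libraries correlated at 0.0165 to 0.0444, and 5 of 6 libraries correlated best with their own number, a hint from the data and not the design, so the numbers were not taken as pairs. C9orf72 against NTG ranged from −0.30 to −0.11 and was not called under any alternative run, with an adjusted p of 0.0302 to 0.549 by edgeR, lowest without WT_NTG replicate 3. Its difference between effectors lost its call without the factor (−0.38), with limma-trend (−0.38) and with DESeq2 (−0.39), and ranged from −0.48 to −0.28 as libraries were left out, settings added after seeing the data. Of 1472 alternative values for the other named genes, 1343 kept their direction and side of the threshold, 129 kept the direction and lost the call, and 0 reversed. Of the 1472, 582 were values with 1 library left out. There the genes chosen by size of change could not lose their call, since the rule of choice required it. The tally is therefore not a free measure of how stable the calls are. Counts of called histone, single-exon and lncRNA genes stayed within 1.5 times of the main count under each alternative, added after seeing the data.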

Other observations

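Outside the histone list, 2 of the 141 other protein-coding genes called higher with a mapped stop codon held the letters of the stem-loop motif in the 150 bases after the stop codon, a share of 1.42% against 0.225% of all genes outside the list. They were H2AX, at 0.73 on the log2 scale, and C11orf71, at 0.97. H2AX is itself a histone gene with a known stem-loop form. The share thus rests on 2 genes, 1 of which had to match, and no conclusion is drawn from it. C11orf71 stood at 3.32, 5.72 and 3.63 CPM in the NTG libraries and at 8.56, 8.40 and 7.83 CPM in the S4 libraries. Of 93 lower protein-coding genes, 0 held the letters. This count was made after the values were seen.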
